A study of Mus musculus with 12 samples.

Results

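The genes described here are 10 mouse transcription factor genes whose human counterparts are switched on abnormally in T cell acute lymphoblastic leukaemia (T-ALL). They are Tal1, Lyl1, Lmo1, Lmo2, Tlx1, Tlx3, Hoxa9, Hoxa10, Mef2c and Hhex. They were chosen by name, with earlier results of these data known. They are 10 of 19938 genes that had a row of their own on the array. Each of the 10 had 1 row. Of these, 8 were bright enough to be tested, with a mean over all arrays at or above the 25th percentile of genes (log2 4.78). Hoxa10 and Hhex lay under that line and were read from a fit without the filter.

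Signals were measured on 12 arrays in 3 groups of sorted thymus cells from C57/BL6 mice. The lymphomas were 6 T cell tumours sorted from the thymus of diseased TCF-1 KO mice of 12 to 40 weeks. TCF-1 KO DN3 thymocytes (3 samples) came from mice of that genotype aged 8 to 12 weeks, and WT DN3 thymocytes (3 samples) from wild-type mice of the same ages. TCF-1 belongs to the TCF/LEF family of HMG-box proteins and acts early in T cell development. DN3 cells are immature thymocytes without CD4 and CD8 that rearrange the T cell receptor beta gene. The lymphomas and the TCF-1 KO DN3 cells share the deletion, and the lymphomas were also taken from a wider and later range of ages. The labels do not describe the deleted allele, the gate used for the tumours or their clonality, and the deleted gene itself was not analysed here. The comparisons ask whether a T-ALL oncogene was raised in DN3 cells without TCF-1, in the tumours as a group, or in any 1 tumour.

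In human T-ALL, translocations, small insertions or other lesions place these genes in cells that have normally shut them off, and the gene activated marks a subtype of the disease. TAL1 and its relative LYL1 are basic helix-loop-helix proteins that pair with E proteins, and LMO1 and LMO2 are LIM-only proteins that bridge such pairs to LDB1 and GATA factors. TLX1, TLX3, HOXA9 and HOXA10 are homeobox proteins, MEF2C is a MADS-box protein, and HHEX is a homeobox protein of blood progenitors. Several of them, among them Lyl1, Lmo2, Mef2c and Hhex, are active in the earliest thymic progenitors of the mouse and decline as cells commit to the T lineage.

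TCF/LEF factors bind short DNA words, of which the word CTTTGAA, the word CTTTGAT, the word CTTTGTA and the word CTTTGTT were searched for. The stretches from 250 bases before to 50 bases after each start site were read for these 4 words on both strands (RefSeq, GRCm38.p6). The table held 14 such windows for 9 of the genes and none for Lmo2. A match was found in 3 of the 14 windows, against 16.9% of all 32851 windows. These 3 windows are printed because they are the ones with a match, which stands in capitals, read 5′ to 3′ on the strand of the gene.
Lmo1, chr7:109175158-109175457, minus strand: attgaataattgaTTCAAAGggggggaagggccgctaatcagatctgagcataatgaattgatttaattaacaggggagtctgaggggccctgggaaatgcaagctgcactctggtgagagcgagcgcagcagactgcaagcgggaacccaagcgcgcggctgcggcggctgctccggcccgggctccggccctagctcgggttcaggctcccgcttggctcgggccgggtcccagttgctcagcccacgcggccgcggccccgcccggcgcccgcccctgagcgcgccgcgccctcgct
Lyl1, chr8:84701207-84701506, plus strand: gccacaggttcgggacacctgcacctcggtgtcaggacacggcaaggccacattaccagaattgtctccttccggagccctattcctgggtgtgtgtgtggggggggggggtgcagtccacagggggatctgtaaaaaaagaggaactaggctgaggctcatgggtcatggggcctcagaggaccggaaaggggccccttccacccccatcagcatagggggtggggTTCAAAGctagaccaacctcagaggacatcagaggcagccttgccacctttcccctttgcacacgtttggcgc
Mef2c, chr13:83573357-83573656, plus strand: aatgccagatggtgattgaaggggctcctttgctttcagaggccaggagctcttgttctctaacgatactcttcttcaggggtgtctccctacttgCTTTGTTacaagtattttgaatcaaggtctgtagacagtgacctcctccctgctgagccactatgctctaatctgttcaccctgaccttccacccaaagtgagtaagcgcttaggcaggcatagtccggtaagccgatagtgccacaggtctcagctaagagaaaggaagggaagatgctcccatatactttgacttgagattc
The Lmo1 and Lyl1 matches are CTTTGAA on the opposite strand, beginning at base -237 and base -23 from the start site. The Mef2c match is CTTTGTT on the strand of the gene, beginning at base -154. The other Lmo1 window and the other Mef2c windows held none of the 4 words. A match is only a run of letters, and no binding was measured on these samples.

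The arrays had medians between log2 5.30 and 5.39, and their number limits the precision. A split of the arrays seen on 34 rows without a gene name was taken as 2 batches, which no label records. The next most frequent split of such rows was seen on 27. Lymphomas 1 and 2 and replicate 1 of TCF-1 KO DN3 and of WT DN3 cells formed the smaller batch, and the other 8 arrays the larger. Defining T cell genes were bright in all groups: the mean level of the 12 measured T cell markers was 8.59 to 8.93 in lymphomas, 8.86 to 9.01 in TCF-1 KO DN3 cells and 8.90 to 8.97 in WT DN3 cells. The mean of 10 measured B cell markers was 4.82 to 4.95 in lymphomas, 5.10 to 5.15 in TCF-1 KO DN3 cells and 4.98 to 5.25 in WT DN3 cells. The mean of 8 measured progenitor markers was 4.85 to 5.02, 5.07 to 5.22 and 5.09 to 5.12 in lymphomas, TCF-1 KO DN3 cells and WT DN3 cells in that order.

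None of the 8 tested oncogenes was called in any of the 3 comparisons, a call being a limma p adjusted over all 14953 genes tested by Benjamini and Hochberg (the adjusted p) under 0.05. The share of all tested genes called was 6.62% between lymphomas and TCF-1 KO DN3 cells, 5.82% between lymphomas and WT DN3 cells and 1.99% between TCF-1 KO and WT DN3 cells. At an unadjusted limma p under 0.05, 2 of the 8 passed between lymphomas and TCF-1 KO DN3 cells (Lyl1 and Mef2c), 2 between lymphomas and WT DN3 cells (Lmo1 and Mef2c) and 0 between TCF-1 KO and WT DN3 cells. Over all tested genes that mark was passed by 24.7%, 15.5% and 16.3% of genes in the same order, so counts of 2, 2 and 0 among 8 genes do not stand out from the background. The 95% intervals of the differences, over all 10 genes and 3 comparisons, ran from -0.61 (Tlx3, lymphomas minus TCF-1 KO DN3) to 0.59 (Lmo2, TCF-1 KO minus WT DN3) on the log2 scale. No interval reached a difference of 1 log2 unit. In bulk samples such as these, fewer cells of a type and less RNA per cell cannot be told apart. With the replicate number as a block, none of the 8 was called between TCF-1 KO and WT DN3 cells either. That fit called 9.23% of all tested genes. A likeness of same-numbered arrays cannot be told from batch there, because replicate 1 of both groups lies in the smaller batch. The block called 6.68% of genes between lymphomas and TCF-1 KO and 5.77% between lymphomas and WT, and none of the 8. In the fits without a filter, which hold Hoxa10 and Hhex too, 0 of the 10 were called, against 4.74%, 4.29% and 1.28% of 19938 genes in lymphomas against TCF-1 KO, lymphomas against WT, and TCF-1 KO against WT DN3 cells.

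**Figure D1:**
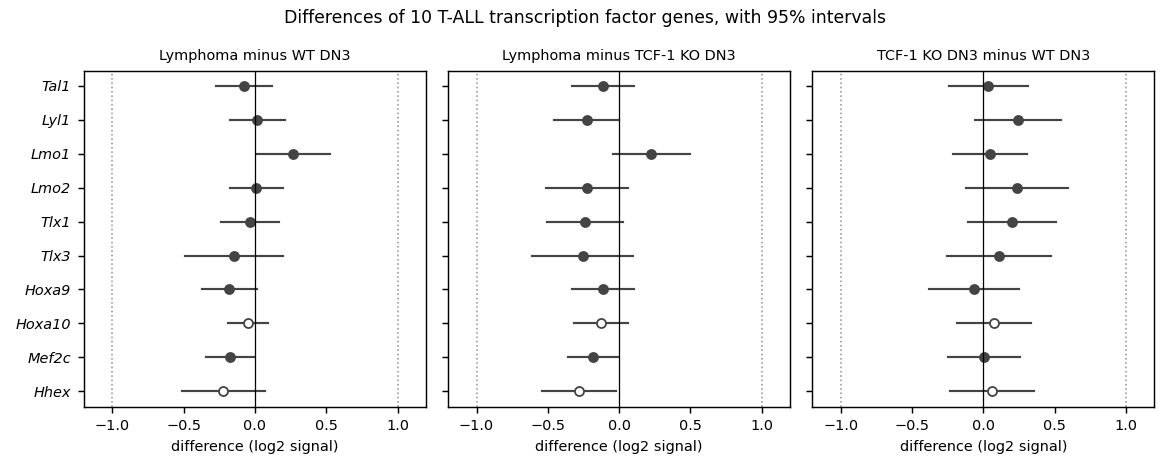
Difference in log2 signal (horizontal axis) for each of the 10 genes in the 3 comparisons, with its 95% interval from limma. Filled points are genes that passed the filter on low signals, open points (Hoxa10 and Hhex) come from the fit without it, and dotted lines mark 1 log2 unit. All intervals lie between -0.61 and 0.59.

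Tal1, whose human counterpart is activated in a large subtype of T-ALL, varied little among the groups. Its log2 signal in the lymphomas had a lowest value of 6.03, a median of 6.09 and a highest of 6.33, against 6.41, 6.20 and 6.10 in TCF-1 KO DN3 cells and 6.25, 6.07 and 6.29 in WT DN3 cells. The 3 groups overlapped, and the lymphomas differed from WT DN3 cells by -0.08 (95% interval -0.27 to 0.12, adjusted p = 0.838). Lyl1, a close relative of Tal1 expressed in blood progenitors, ran from 5.67 through a median of 5.85 to 5.92 in the lymphomas, against 6.22, 6.14 and 5.83 in TCF-1 KO DN3 cells and 5.92, 5.66 and 5.88 in WT DN3 cells. TCF-1 KO replicates 1 and 2 stood above every other array for Lyl1. The lymphomas differed from TCF-1 KO DN3 cells by -0.23 (95% interval -0.45 to -0.0020, adjusted p = 0.199), and TCF-1 KO from WT DN3 cells by 0.24 (adjusted p = 0.401).

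The LIM-only gene Lmo1 is the 1 member of the set whose highest array was a lymphoma. Its signal was 4.82, 4.82, 5.35, 4.88, 5.08 and 5.03 in lymphomas 1 to 6, against 4.84, 4.62 and 4.84 in TCF-1 KO DN3 cells and 4.81, 4.67 and 4.70 in WT DN3 cells. Lymphomas 3 to 6 lay above all DN3 arrays, while lymphomas 1 and 2 lay within the DN3 range. The mean was 5.00 ± 0.20 in lymphomas (SD, n = 6), 4.77 ± 0.13 in TCF-1 KO DN3 cells (SD, n = 3) and 4.73 ± 0.08 in WT DN3 cells (SD, n = 3). Against WT DN3 cells the difference was 0.27 (95% interval 0.01 to 0.53, adjusted p = 0.291), and against TCF-1 KO DN3 cells 0.23 (-0.05 to 0.50, adjusted p = 0.286). The batches gave different values: lymphomas minus WT DN3 cells came to 0.01 in the smaller batch and 0.40 in the larger, and lymphomas minus TCF-1 KO DN3 cells to -0.03 and 0.35. The smaller batch holds 2 lymphomas and 1 array of each DN3 group and was not tested on its own. Without lymphoma 3 the difference from WT DN3 cells was 0.20 (adjusted p = 0.352). On no array did Lmo1 pass the 95th percentile of the sensory receptor genes described below.

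Lmo2, the LIM-only protein needed for blood stem cell formation, ran from 5.30 through a median of 5.51 to 5.57 in the lymphomas, against 6.10, 5.46 and 5.56 in TCF-1 KO DN3 cells and 5.40, 5.52 and 5.49 in WT DN3 cells. TCF-1 KO replicate 1 stood 0.53 above the highest lymphoma, and all other arrays lay close together. The difference between TCF-1 KO and WT DN3 cells was 0.24 (95% interval -0.12 to 0.59, adjusted p = 0.493), and it was 0.70 in the smaller batch and 0.01 in the larger. Without that replicate it was 0.04 (adjusted p = 0.900). The lymphomas differed from WT DN3 cells by 0.01 (95% interval -0.17 to 0.19, adjusted p = 0.986). Over the whole set, replicate 1 of the TCF-1 KO DN3 cells held the highest of the 12 signals for 4 of the 10 genes (Tal1, Lyl1, Lmo2 and Tlx1), against 17.6% of all genes. The lymphoma minus TCF-1 KO difference without that replicate was -0.02 for Tal1, -0.15 for Lyl1, -0.03 for Lmo2 and -0.11 for Tlx1.

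**Figure D2:**
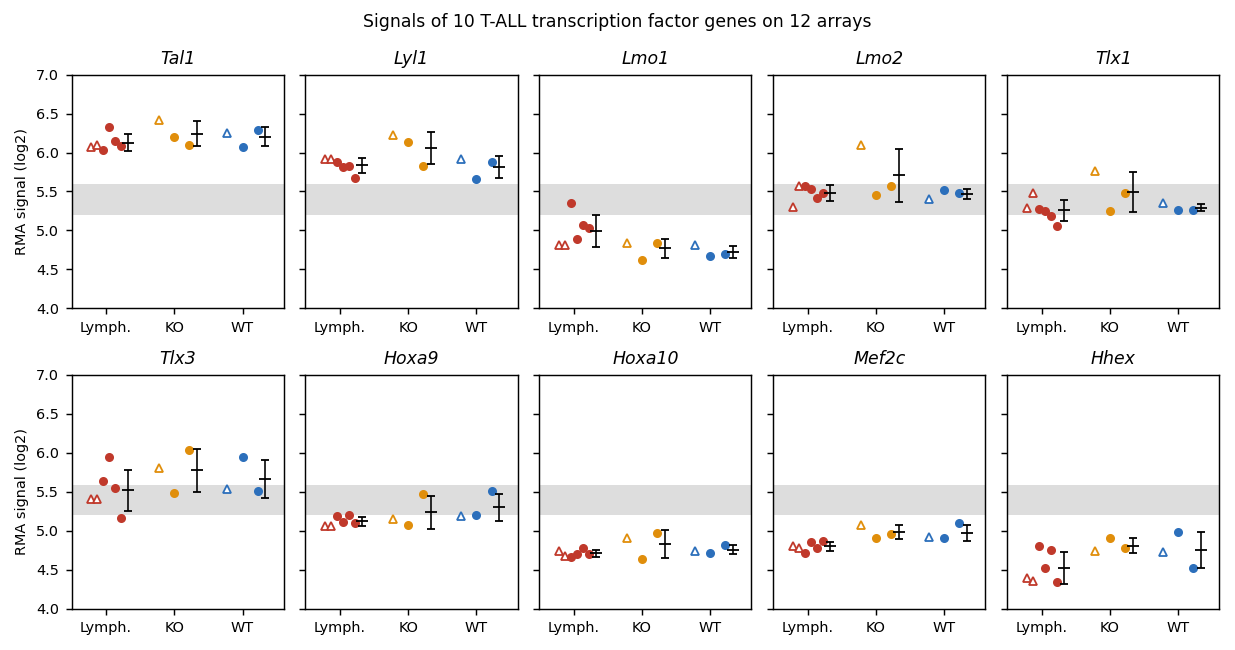
RMA signal (log2, vertical axis) of each of the 10 genes on every array: lymphomas (red, n = 6), TCF-1 KO DN3 cells (orange, n = 3) and WT DN3 cells (blue, n = 3). Open triangles are the smaller batch, filled circles the larger, black marks the mean ± SD, and the grey band the 95th percentile of 1190 sensory receptor genes over the arrays (5.20 to 5.59). Tal1 and Lyl1 lie above the band on every array, Lmo2 has 1 high TCF-1 KO array, and no gene was called in any comparison.

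Tlx1 and Tlx3, NK-like homeobox genes that direct spleen and neuron formation in the mouse embryo, are activated by translocation in T-ALL of cortical type. Tlx1 ran from 5.06 through a median of 5.26 to 5.48 in the lymphomas, against 5.76, 5.24 and 5.48 in TCF-1 KO DN3 cells and 5.35, 5.27 and 5.27 in WT DN3 cells. The groups overlapped, with TCF-1 KO replicate 1 again highest. The difference between lymphomas and TCF-1 KO DN3 cells was -0.24 (95% interval -0.50 to 0.03, adjusted p = 0.250). Tlx3 ran from 5.16 through a median of 5.48 to 5.94 in the lymphomas, against 5.80, 5.49 and 6.03 in TCF-1 KO DN3 cells and 5.53, 5.95 and 5.51 in WT DN3 cells. It spanned the most of the 10 genes over the 12 arrays (0.87), and the highest array of each group lay between 5.94 and 6.03. The lymphomas differed from WT DN3 cells by -0.15 (95% interval -0.49 to 0.20, adjusted p = 0.810). Without WT replicate 2 that difference was -0.0045, and without lymphoma 4 it was -0.23.

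Hoxa9 and Hoxa10 keep blood progenitors immature, and the HOXA cluster is raised in T-ALL with KMT2A or other rearrangements. Hoxa9 ran from 5.06 through a median of 5.11 to 5.20 in the lymphomas, against 5.16, 5.08 and 5.48 in TCF-1 KO DN3 cells and 5.19, 5.20 and 5.50 in WT DN3 cells. Replicate 3 of both DN3 groups stood above the rest, and no lymphoma did. The lymphomas differed from WT DN3 cells by -0.18 (95% interval -0.37 to 0.02, adjusted p = 0.378), with -0.13 in the smaller batch and -0.20 in the larger. Without WT replicate 3 it was -0.077 (adjusted p = 0.879). Hoxa10 ran from 4.66 through a median of 4.71 to 4.77 in the lymphomas, against 4.90, 4.63 and 4.97 in TCF-1 KO DN3 cells and 4.74, 4.72 and 4.82 in WT DN3 cells. In the fit without a filter its lymphomas differed from WT DN3 cells by -0.05 (adjusted p = 0.918) and from TCF-1 KO DN3 cells by -0.13 (adjusted p = 0.428).

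Mef2c, a factor of immature T-ALL that also acts in B cells and muscle, was the 1 gene of the set whose 6 lymphomas all lay under all 6 DN3 arrays. It ran from 4.72 through a median of 4.79 to 4.86 in the lymphomas, against 5.08, 4.90 and 4.96 in TCF-1 KO DN3 cells and 4.92, 4.91 and 5.10 in WT DN3 cells. The lymphomas had a mean of 4.80 ± 0.06 (SD, n = 6), against 4.98 ± 0.09 in TCF-1 KO DN3 cells and 4.98 ± 0.10 in WT DN3 cells (SD, n = 3 each). The difference was -0.18 from either DN3 group, with adjusted p = 0.198 against TCF-1 KO and 0.298 against WT. Groups that do not overlap were found for 13.6% of tested genes between lymphomas and TCF-1 KO DN3 cells (Mef2c among the oncogenes) and for 10.3% between lymphomas and WT DN3 cells (Lmo1 and Mef2c). Between TCF-1 KO and WT DN3 cells 22% of tested genes and none of the 8 oncogenes did so. The difference of Mef2c from WT DN3 cells was -0.13 in the smaller and -0.20 in the larger batch, and from TCF-1 KO DN3 cells -0.29 and -0.13. Without WT replicate 3 the difference from WT was -0.12. Of 6 tested B cell markers 2 fell in the lymphomas against each DN3 group, Cd79b by 0.82 against TCF-1 KO and by 0.95 against WT, while Vpreb1 fell by 0.50 against TCF-1 KO and fell by 1.46 against WT. Vpreb1 lost its call against TCF-1 KO in 12 settings (adjusted p up to 0.304, with all arrays fitted together) and against WT with the replicate block (0.0516), in the larger batch alone (0.0772) and without WT replicate 3 (0.0651). Without WT replicate 1, the highest array for Vpreb1, its difference from WT was -0.91. Their part in the Mef2c values was not tested.

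Hhex, a target of LMO2 in mouse thymocytes that carry an Lmo2 transgene, ran from 4.34 through a median of 4.46 to 4.80 in the lymphomas, against 4.74, 4.91 and 4.78 in TCF-1 KO DN3 cells and 4.73, 4.99 and 4.53 in WT DN3 cells. Of the lymphomas 4 lay under every DN3 array, and lymphomas 3 and 5 lay within their range. In the fit without a filter the lymphomas differed from TCF-1 KO DN3 cells by -0.28 (95% interval -0.54 to -0.02, adjusted p = 0.195) and from WT DN3 cells by -0.22 (-0.51 to 0.07, adjusted p = 0.606). At an unadjusted p under 0.05 the first of these passed, as did 21.8% of the 19938 genes of that fit.

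The median difference of the 8 tested genes was -0.20 between lymphomas and TCF-1 KO DN3 cells, against -0.03 for all tested genes. It was -0.06 against -0.01 between lymphomas and WT DN3 cells, and 0.08 against 0.03 between TCF-1 KO and WT DN3 cells. Single arrays moved these medians: without TCF-1 KO replicate 1 the first was -0.12 and the last 0.02, without TCF-1 KO replicate 2 the last was 0.16, and without lymphoma 6 the second was -0.03. Comparisons with a group in common share its arrays, and a TCF-1 KO array was the highest of the 12 for 6 of the 10 genes, against 40.3% of all genes. The mean level of 9 thymic epithelium markers was 5.22 to 5.37 in lymphomas, 5.53 to 5.73 in TCF-1 KO DN3 cells and 5.36 to 5.51 in WT DN3 cells, and 3 of the 9 were called lower in lymphomas than in TCF-1 KO DN3 cells (Epcam, Foxn1 and Prss16), against 2.12% of all tested genes. Epcam kept that call in every setting, Foxn1 in 7 of 19 and Prss16 in 8 of 19. Their part in the values of the oncogenes was not tested.

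To place the signals of the oncogenes, each array was set against 1190 odorant and vomeronasal receptor genes, which thymocytes are not known to use. The 95th percentile of these genes lay between 5.20 and 5.59 over the arrays. Tal1 and Lyl1 lay above it on all 12 arrays, as did 40.1% of all genes. Lmo2 and Tlx3 lay above it on 11 arrays, Tlx1 on 4, Hoxa9 on 1, and Lmo1, Hoxa10, Mef2c and Hhex on none. The groups did not separate: Lmo2 was above it in 6 of 6 lymphomas, 2 of 3 TCF-1 KO and 3 of 3 WT DN3 arrays, and Tlx3 in 5 of 6, 3 of 3 and 3 of 3. With the 99th percentile no gene of the set lay above it on all arrays, and with the 90th 4 did. This line describes the arrays and is no test of expression, since rows differ in their own background. Nkx2-5, a heart factor gene singled out after its values were seen, also lay above it on every array. It is itself listed among the homeobox oncogenes and relatives read below, so it is no neutral control.

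A gene activated in 1 tumour could be missed by a comparison of means, so each lymphoma was also read alone. None of the 10 genes rose more than 1 log2 unit above the highest of the 6 DN3 arrays in any lymphoma, and none lay as far under the lowest. Over all genes tested, 1.27% (190 genes) did so on the high side and 0.615% on the low side in at least 1 lymphoma. The 6 lymphomas had 91, 87, 75, 57, 58 and 49 such high genes in order. The nearest of the oncogenes was Lmo1 in lymphoma 3, which stood 0.51 above the highest DN3 array, a distance past 0.5 log2 units that 4.91% of genes also passed. For the other 9 genes the highest lymphoma lay under the highest DN3 array, by 0.53 for Lmo2 and 0.08 for Tal1 at the ends of that range. The span over the 12 arrays was 0.34 to 0.87 for the 10 genes, against a median of 0.61 for all tested genes, and 3.99% of tested genes spanned 1.5 or more. No gene of the set did.

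**Figure D3:**
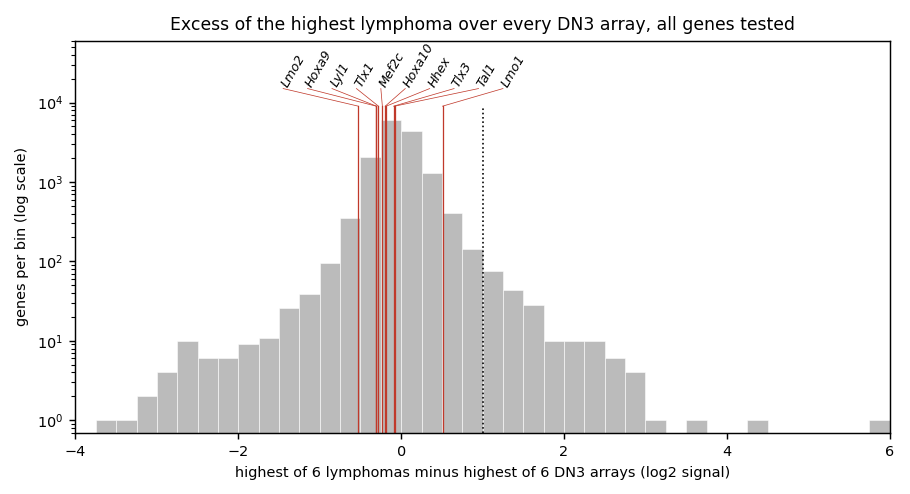
Number of tested genes (vertical axis, log scale) by the highest of the 6 lymphomas minus the highest of the 6 DN3 arrays (horizontal axis, log2 signal), with the 10 oncogenes as red lines (Hoxa10 and Hhex, not tested, included) and 1 log2 unit dotted. Lmo1 is the only one of the 10 above 0, at 0.51, and 190 tested genes lie beyond 1.

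The partners of TAL1 and LMO2 take part in the oncogenic complex, and several of them are made by normal thymocytes too. Of 18 listed partners 14 were tested. Between lymphomas and TCF-1 KO DN3 cells 2 rose (4.5% of all tested genes rose), 1 fell (2.12% fell) and 11 did not pass. Against WT DN3 cells 2 rose in lymphomas (2.96%), 2 fell (2.86%) and 10 did not pass, and between TCF-1 KO and WT DN3 cells 0 rose (0.568%), 1 fell (1.42%) and 13 did not pass. Gata3, the GATA factor of T cells, was 8.80 ± 0.28 in lymphomas (SD, n = 6), 7.91 ± 0.21 in TCF-1 KO DN3 cells and 8.05 ± 0.12 in WT DN3 cells (SD, n = 3 each). It rose by 0.89 against TCF-1 KO (adjusted p = 0.00673) and by 0.75 against WT (adjusted p = 0.00987), and lost both calls in the larger batch alone (0.0635 and 0.0884).

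Lmo4, a LIM-only relative of Lmo1 and Lmo2 that also binds LDB1, stood at 6.57, 7.51, 6.52, 7.85, 7.29 and 6.89 in lymphomas 1 to 6, against 5.79, 5.91 and 5.80 in TCF-1 KO DN3 cells and 5.88, 6.51 and 6.51 in WT DN3 cells. Every lymphoma lay above every DN3 array, lymphomas 1 and 3 only just above WT replicates 2 and 3. Lmo4 rose by 1.27 against TCF-1 KO DN3 cells (95% interval 0.71 to 1.83, adjusted p = 0.0124), a call lost without TCF-1 KO replicate 1 or 3 or in the larger batch (adjusted p up to 0.0628). Against WT DN3 cells its difference was 0.81 (adjusted p = 0.146). It was the 1 partner more than 1 log2 unit above all DN3 arrays in a lymphoma. The cofactor gene Ssbp3 fell by 0.42 against TCF-1 KO and by 0.47 against WT DN3 cells, and Ssbp2 by 0.76 against WT. The E protein gene Tcf12 rose by 0.41 against WT DN3 cells, and Tcf4, another E protein gene, fell by 0.52 in TCF-1 KO against WT DN3 cells (adjusted p = 0.0441). Each of these last calls was lost on leaving out some single DN3 arrays, with adjusted p up to 0.115 for Ssbp3, 0.0707 for Ssbp2, 0.184 for Tcf12 and 0.202 for Tcf4, and Ssbp3 reached 0.211 in the larger batch alone.

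Genes of the circuit that TAL1 drives in human T-ALL numbered 13, of which 10 were tested. For this list and those below, the shares of all tested genes that rose or fell are the ones given for the partners. Between lymphomas and TCF-1 KO DN3 cells 1 rose, 1 fell and 8 did not pass. Against WT DN3 cells 3 rose, 1 fell and 6 did not pass, and between TCF-1 KO and WT DN3 cells none was called, the lowest p belonging to Trib2 (0.69, adjusted p = 0.139) and Ubash3a, a regulator of T cell receptor signalling (-0.29, adjusted p = 0.218). Unadjusted, 7 of the 10 passed there, against 16.3% of all tested genes, and 6 of the 10 had groups that do not overlap, against 22%. The 7 did not share a direction: Arid5b, Trib2 and Tox were higher in TCF-1 KO DN3 cells, and Myb, Ubash3a, Rag1 and Fli1 lower. Trib2 was called there with the replicate block. Trib2, a pseudokinase gene, was 7.30 ± 0.20 in lymphomas (SD, n = 6) against 6.03 ± 0.32 in WT DN3 cells (SD, n = 3), a rise of 1.27 (adjusted p = 0.000216). Tox, an HMG-box factor of thymocyte maturation, rose by 0.79 against WT (adjusted p = 0.000667). Ets1, an ETS factor of T cells, rose by 0.48 against TCF-1 KO and by 0.40 against WT DN3 cells. Rag1, a subunit of the recombinase, fell by 1.62 and by 1.92. Rag1 stood at 8.67, 7.78, 8.69, 7.42, 8.66 and 9.63 in lymphomas 1 to 6, against 10.18, 10.15 and 9.93 in TCF-1 KO DN3 cells and 10.30, 10.34 and 10.53 in WT DN3 cells. Every tumour lay under every DN3 array, by differing amounts. Rag1 lost its call against either DN3 group in the larger batch alone (adjusted p = 0.152 and 0.0700), as did Ets1 (0.0576 and 0.0775). Rag1 also lost its call against TCF-1 KO when any TCF-1 KO array was left out, and against WT without WT replicate 3. Ets1 kept its call in 16 of 20 settings against TCF-1 KO (adjusted p up to 0.0824) and in 16 of 20 against WT (up to 0.122). Trib2 and Tox kept theirs under every alternative.

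Genes of the progenitor programme of LMO2 and LYL1 numbered 18, with 16 tested. Between lymphomas and TCF-1 KO DN3 cells 1 rose (Lmo4), 2 fell and 13 did not pass. Against WT DN3 cells 0 rose, 5 fell and 11 did not pass, and between TCF-1 KO and WT DN3 cells 0 rose, 2 fell and 14 did not pass. Erg, an ETS factor of stem cells and early thymocytes, was 5.63 ± 0.16 in lymphomas (SD, n = 6), 6.59 ± 0.40 in TCF-1 KO DN3 cells and 6.97 ± 0.09 in WT DN3 cells (SD, n = 3 each). It fell by 0.96 against TCF-1 KO (adjusted p = 0.00385) and by 1.34 against WT (adjusted p = 9.48e-06). Bcl2, the survival gene, fell by 0.92 and 1.13. Against TCF-1 KO its call held in 16 of 20 alternative settings (adjusted p up to 0.0890). It was lost in the larger batch alone and when any TCF-1 KO array was left out. Kit, the stem cell factor receptor, fell by 1.03 in lymphomas against WT DN3 cells and by 0.69 in TCF-1 KO against WT DN3 cells, and Zbtb20, a zinc-finger factor, fell by 1.08 and by 1.40. Nfe2, a factor of platelet precursors, fell by 0.65 in lymphomas against WT DN3 cells. In no group did Nfe2 lie above the 95th percentile of the sensory receptor genes on all arrays. Erg, Kit, Zbtb20 and Nfe2 kept their lymphoma against WT calls under every alternative, and Bcl2 lost that one in the larger batch (adjusted p = 0.0517). Kit in TCF-1 KO against WT DN3 cells was lost without WT replicate 2 or 3 or TCF-1 KO replicate 3 (up to 0.104).

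Of 22 genes of the HOXA cluster and its cofactors 15 were tested, and none was called in the lymphomas against either DN3 group. The lowest p belonged to Hoxa2 (-0.31, adjusted p = 0.0556) and Pknox1 (0.29, adjusted p = 0.0716) against TCF-1 KO DN3 cells, and to Kmt2a (-0.34, adjusted p = 0.237) and Dot1l (-0.19, adjusted p = 0.280) against WT DN3 cells. Unadjusted, 4 and 2 of the 15 passed, against 24.7% and 15.5% of all tested genes. Kmt2a, the methyltransferase that maintains HOXA expression, fell by 0.60 in TCF-1 KO against WT DN3 cells (adjusted p = 0.0236), the 1 call of that list there, lost when any WT array or TCF-1 KO replicate 3 was left out (up to 0.137). Of 12 further homeobox oncogenes and relatives 9 were tested and none was called in any comparison. Unadjusted, 3, 0 and 3 passed in lymphomas against TCF-1 KO, lymphomas against WT, and TCF-1 KO against WT DN3 cells. Over all tested genes 24.7%, 15.5% and 16.3% passed in that order. The lowest p belonged to Tlx2 (-0.36, adjusted p = 0.0638) and Dlx5 (-0.33, adjusted p = 0.0810) in lymphomas against TCF-1 KO DN3 cells, to Nkx2-3 (0.17, adjusted p = 0.466) and Lhx2 (0.13, adjusted p = 0.813) against WT DN3 cells, and to Nkx2-3 (0.34, adjusted p = 0.226) and Olig2 (0.29, adjusted p = 0.238) in TCF-1 KO against WT DN3 cells.

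Of 13 genes of the MEF2 family and its regulators 12 were tested. In lymphomas 1 rose and 1 fell against each DN3 group, and 10 did not pass. Between TCF-1 KO and WT DN3 cells 1 rose and 11 did not pass. Camk4, a calcium-dependent kinase that activates MEF2 factors, was 8.31 ± 0.18 in lymphomas (SD, n = 6), 7.38 ± 0.32 in TCF-1 KO DN3 cells and 6.32 ± 0.10 in WT DN3 cells (SD, n = 3 each). It rose by 0.93 against TCF-1 KO (adjusted p = 0.00279) and by 1.99 against WT (adjusted p = 6.47e-07), and by 1.05 in TCF-1 KO against WT DN3 cells (adjusted p = 0.00841). Hdac4, a deacetylase that binds and represses MEF2 factors, was 7.15 ± 0.17 in lymphomas (SD, n = 6), 8.06 ± 0.21 in TCF-1 KO DN3 cells and 8.58 ± 0.03 in WT DN3 cells (SD, n = 3 each). It fell by 0.91 and by 1.42 (adjusted p = 0.00119 and 5.29e-06), with no overlap of lymphoma and DN3 arrays. These 5 calls held under every alternative. Hdac4 differed by -0.51 between TCF-1 KO and WT DN3 cells without a call (adjusted p = 0.0757), and was called there with the replicate number as a block, where 9.23% of genes were.

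TLX1 and TLX3 leukaemias arrest at the cortical stage in humans, so 18 genes of that stage were read, of which 16 were tested. Between lymphomas and TCF-1 KO DN3 cells 3 rose, 2 fell and 11 did not pass. Against WT DN3 cells 4 rose, 4 fell and 8 did not pass, and between TCF-1 KO and WT DN3 cells 3 rose, 1 fell and 12 did not pass. Itm2a, a membrane protein of thymocytes under selection, rose by 1.86 against TCF-1 KO (adjusted p = 2.74e-05) and by 2.02 against WT (adjusted p = 6.30e-06), and the costimulatory receptor gene Cd28 by 1.04 and 1.26. Cd8b1, a chain of the CD8 coreceptor, rose by 1.43 in lymphomas and by 1.40 in TCF-1 KO against WT DN3 cells, and Cd5 by 0.98 and 0.63. Cd8a rose by 1.21 in TCF-1 KO against WT DN3 cells, and its difference in lymphomas against WT was 0.85 (adjusted p = 0.292). Cd3e rose by 0.59 and Ptcra, the pre-T cell receptor chain, fell by 0.64 against TCF-1 KO DN3 cells, both near the threshold (adjusted p = 0.0200 and 0.0470). Dntt, which adds bases at receptor junctions, fell by 0.94 in lymphomas and by 0.69 in TCF-1 KO against WT DN3 cells. Rag2, the other recombinase subunit, and Cd3g fell by 1.39 and 0.35 in lymphomas against WT. The larger batch alone gave adjusted p = 0.0788 for Cd28 and 0.162 for Cd3e against TCF-1 KO and 0.203 for Rag2 against WT. These calls were also lost in other settings: Cd28 kept its own in 18 of 20, Cd3e in 16 of 20 and Rag2 in 16 of 20. Rag2 lost its call when any WT array was left out. Itm2a kept both calls and Cd8b1 both of its own under every alternative. Cd8a lost its call only when all arrays were fitted together (adjusted p = 0.129). In TCF-1 KO against WT DN3 cells, Cd5 kept its call in 11 of 17 settings (adjusted p up to 0.170) and Dntt in 14 of 17 (up to 0.119). Cd3g kept its call against WT in 11 of 20 (up to 0.168), and Ptcra its call against TCF-1 KO in 9 of 20 (up to 0.275).

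Of 16 other oncogenes of T-ALL 13 were tested. Between lymphomas and TCF-1 KO DN3 cells 1 rose, 1 fell and 11 did not pass, and against WT DN3 cells 1 rose, 2 fell and 10 did not pass. Between TCF-1 KO and WT DN3 cells 1 rose, 2 fell and 10 did not pass. Lef1, the TCF/LEF relative of the deleted factor, rose in all 3 comparisons, by 0.42, 1.43 and 1.01, the first of these close to the threshold (adjusted p = 0.0449). Ccnd2, a D-type cyclin gene, fell by 0.99 against TCF-1 KO, fell by 1.72 against WT DN3 cells, and fell by 0.72 in TCF-1 KO against WT DN3 cells. Il7r, the interleukin 7 receptor gene, fell by 2.30 in lymphomas and by 1.01 in TCF-1 KO against WT DN3 cells. Il7r kept its lymphoma against WT call in 17 of 20 alternative settings (adjusted p up to 0.0967). Its TCF-1 KO against WT call held in 14 of 17 (up to 0.311). Lef1 kept its call against TCF-1 KO in 8 of 20 (up to 0.165) and its calls against WT DN3 cells in all. Ccnd2 kept its call in TCF-1 KO against WT DN3 cells in 12 of 17 (up to 0.120). In lymphomas Ccnd2 held in 19 of 20 against TCF-1 KO (up to 0.0669) and in 20 of 20 against WT. With the replicate block, TCF-1 KO against WT DN3 cells gave added calls in these lists for Trib2, higher in TCF-1 KO, and for Ldb1, Lmo4, Hdac4, Rag2 and Jak1, lower in TCF-1 KO.

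**Figure D4:**
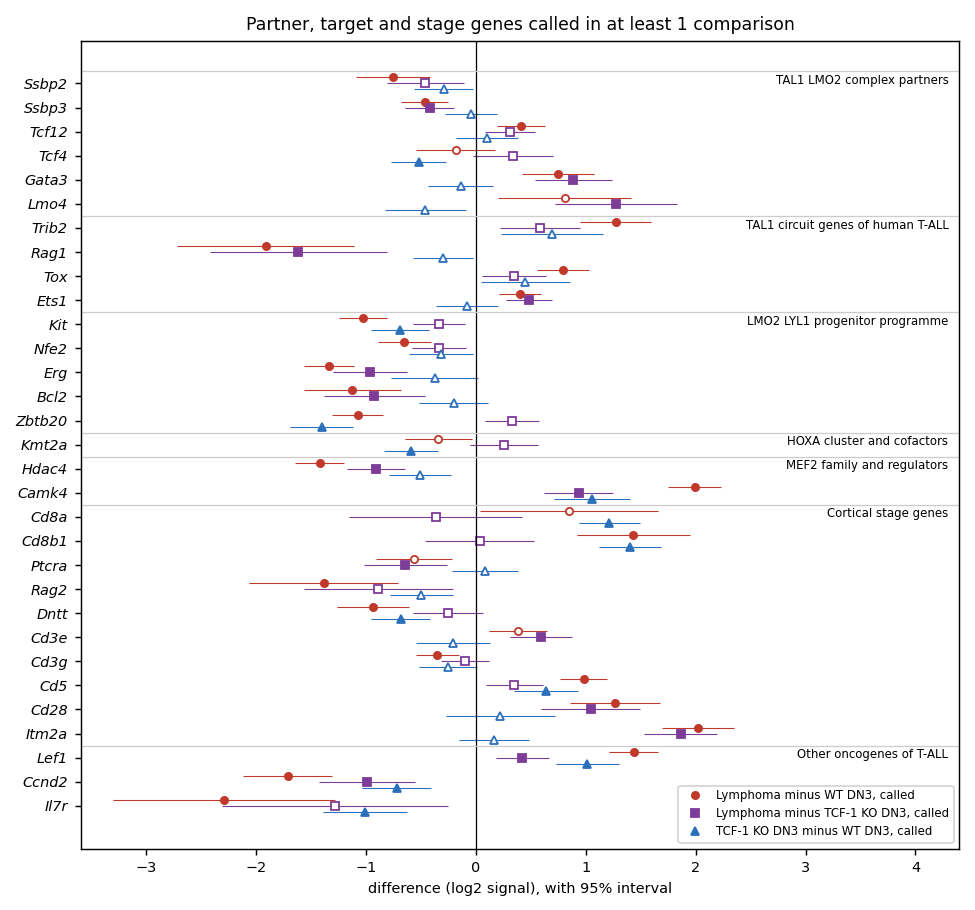
Difference in log2 signal (horizontal axis) with its 95% interval for the 31 listed genes called in at least 1 comparison, grouped by list. Filled symbols are calls and open symbols are not, red circles are lymphomas minus WT DN3, purple squares lymphomas minus TCF-1 KO DN3 and blue triangles TCF-1 KO minus WT DN3. Camk4 and Lef1 are filled to the right in all 3 comparisons and Ccnd2 to the left. Calls are those of the main fit, and Lef1 and Ccnd2 lost some of theirs under alternatives.

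Over these lists, 22 distinct listed or marker genes were called and named between lymphomas and TCF-1 KO DN3 cells, 30 between lymphomas and WT DN3 cells and 12 between TCF-1 KO and WT DN3 cells. All kept their sign under every alternative run, and 6, 18 and 4 of them kept their call under every one. The 4 were Camk4, Cd8b1, Lef1 and Zbtb20, and the 6 were Camk4, Cd79b, Epcam, Erg, Hdac4 and Itm2a. Unadjusted, the genes that passed in lymphomas against TCF-1 KO, lymphomas against WT and TCF-1 KO against WT DN3 cells, in this order, were 6, 6 and 5 of 14 TAL1 and LMO2 partners, 6, 5 and 7 of 10 circuit genes, and 8, 7 and 6 of 16 progenitor genes. They were 4, 2 and 4 of 15 HOXA genes and cofactors, 4, 5 and 4 of 12 MEF2 genes, 7, 13 and 7 of 16 cortical genes and 5, 5 and 5 of 13 other oncogenes. Over all tested genes 24.7%, 15.5% and 16.3% passed unadjusted in the same order.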

How the data were processed

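Sorted cells went straight into Trizol LS, and RNA was amplified with the NuGEN WT-Ovation Pico system from picogram to nanogram amounts, per the labels' protocols. The authors deposited log2 signals (base from the range, 3.0 to 13.31) of 35556 rows for 12 arrays, and the submitters' processing notes name Partek and RMA. Their versions and the genome build are not given in the sources used. RMA sets all arrays to 1 distribution, so a change shared by most genes would not show.

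Of the rows, 21789 had 1 gene symbol, 1621 several and 12146 none. The brightest row stood for each of 999 genes with several rows. Genes with a mean at or above the 25th percentile were tested with limma 3.58.1 in R 4.3.3, 2 groups at a time, with Benjamini-Hochberg adjustment over 14953 genes. The scripts were tested on simulated data. Named genes were the 10 oncogenes and, per list and comparison, up to 6 called genes of lowest p, or the 2 of lowest p where none was called. The genes and lists were chosen with earlier results of these data known. The gene and marker lists overlap, with 18 genes in more than 1 list, Rag1, Lmo4, Kit, Ptcra and Cd3e among them.

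The labels call the samples biological replicates and do not tie them to animals, so p-values cover only the spread among these arrays, which may in part be technical. Same-numbered TCF-1 KO and WT DN3 arrays deviated together (correlations 0.506, 0.418 and 0.254). Lymphoma 1 correlated at 0.376 and 0.438 with replicate 1 of TCF-1 KO and WT DN3 cells. For lymphoma 2 the values with replicate 2 were -0.26 and -0.22, and for lymphoma 3 with replicate 3 they were 0.115 and 0.155. Replicate 1 of both DN3 groups and lymphomas 1 and 2 lie in the smaller batch, and the other arrays in the larger. Pairing and batch can therefore not be told apart, and the block is given as an alternative only. Batches came from 34 of 12146 unnamed rows, on which the arrays lay in the same 2 sets at least 1 log2 unit apart. This was the most frequent such split, and the next had 27 rows. Alternatives changed the normalization, filter, row rule, variance model, weights, block, batch and arrays. The deleted gene itself was not analysed here.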

Additional observations from a re-analysis of the deposited data

Results flagged for a closer look

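None of the 10 oncogenes had a lymphoma standing apart from the other 5 by Dixon's criterion for 6 samples. Of the 50 genes checked 2 did, and chance flags about 1 in 20 groups. Il7r was 8.26 in lymphoma 3, against 5.67 to 6.54 in the other lymphomas. Epcam, a thymic epithelium marker, was 4.59 in lymphoma 6, against 4.84 to 4.96 in the others.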

How the results depend on the processing

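None of the tested oncogenes was called in any comparison under any alternative: 450 alternative values were computed and 0 passed, the lowest adjusted limma p being 0.0895 (Tlx1, lymphomas minus TCF-1 KO DN3, -0.36 without TCF-1 KO replicate 2). A sign changed in 24 of them, all for small differences. Genes under the filter have no value in the filtered alternatives, and the 50th percentile filter left 4 oncogenes tested.

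For TCF-1 KO minus WT DN3, Tal1 became -0.024 with arrays centred on their medians and -0.030 in the larger batch alone, Lmo1 -0.016 when centred and -0.035 when quantile-normalised again, and Mef2c -0.055 when centred, -0.077 when quantile-normalised again and -0.070 in the larger batch. For lymphomas minus WT DN3, Tlx1 was 0.054 with the replicate block and Lmo2 -0.0021 in the larger batch. Leaving out 1 array gave TCF-1 KO minus WT ranges of -0.18 to 0.039 for Hoxa9, -0.043 to 0.065 for Mef2c, -0.052 to 0.10 for Tal1 and -0.019 to 0.25 for Tlx3. It gave -0.20 to 0.0039 for Hoxa9 in lymphomas minus TCF-1 KO, and in lymphomas minus WT -0.025 to 0.045 for Lmo2, -0.064 to 0.068 for Lyl1, -0.080 to 0.0029 for Tlx1, -0.23 to -0.0045 for Tlx3 and -0.23 to -0.077 for Hoxa9.

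Genes called between TCF-1 KO and WT DN3 numbered 298, against 1380 with the replicate block, 754 with batch as a term, 144 in the larger batch and 57 to 443 with 1 array left out. Between lymphomas and WT they numbered 871, against 549 in the larger batch and 560 to 872 with 1 array left out. Between lymphomas and TCF-1 KO they numbered 990, against 1702 with batch as a term, 325 in the larger batch and 431 to 1361 with 1 array left out. The block gave 863 and 999 in the lymphoma comparisons, where no label pairs the replicate numbers. Higher calls were 85 of 298, against 93 of 239 when quantile-normalised again, and 673 of 990, against 966 of 1172 when centred. The larger batch has fewer arrays. The cause of the other shifts was not tested. Members above the receptor genes on all arrays numbered 2, and 4 and 0 with the 90th and 99th percentiles. At 0.5 log2 units 1 oncogene was high in a single lymphoma, against 0 at 1 unit.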
